A study of Homo sapiens with 6 samples.

Results

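The transcript levels of 10 genes of the cellular response to low oxygen were examined in NCI-H660 cells that received either PBS or the drug pyrvinium pamoate (PP). The members were taken by gene symbol from a table of 17177 genes, and all 10 were found in it. They comprised the hypoxia-inducible factors *HIF1A* and *EPAS1*, the prolyl hydroxylases *EGLN1* and *EGLN3*, and the hypoxia targets *VEGFA*, *ADM*, *CA9*, *BNIP3*, *ANKRD37* and *NDRG1*. NCI-H660 is an established human cell line of neuroendocrine prostate cancer (NEPC), and PP is used against intestinal worms. Both groups were wild-type cells, labelled day 3, that received either PBS (3 libraries) or PP (3 libraries), with no other agent or allele named in the labels. The concentration of PP for these libraries was not found in the sources used here, and no culture at low oxygen was described, so the levels in PBS are those of the standard culture. All libraries came from 1 cell line.

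Hypoxia-inducible factors (HIFs) are pairs of an alpha subunit, encoded by *HIF1A* or *EPAS1*, and a beta subunit, encoded by *ARNT*. When oxygen is present, prolyl hydroxylases of the EGLN family modify the alpha subunit, the VHL complex then recognises it, and the proteasome degrades it. When oxygen is scarce, the alpha subunit persists, binds DNA with its partner and activates genes for glucose uptake, glycolysis, blood vessel growth, acid export and mitophagy. HIF activity is thus set mainly at the level of protein, and a transcript level of *HIF1A* does not measure it.

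Start-site windows of the members were read from RefSeq (GRCh38.p14), each 300 bases long with 250 bases before and 50 after the annotated start. Windows were held for 8 of the 10 members, with 2 alternative windows for *HIF1A*, and those of *VEGFA* and *NDRG1* were not. The core letters of the hypoxia response element, ACGTG or GCGTG on either strand, were in a window of 7 of these 8 members. *HIF1A* was counted by 1 of its 2 windows, while the shares that follow are per window. The same letters were in 48.4% of all 35116 windows, and in 64.9% of the 16447 windows with a GC content of at least 60%. *BNIP3* held 6 cores and *ANKRD37* held 3. Of all windows, 0.923% held 6 or more and 10.1% held 3 or more. Both windows had a GC content above 60%, and among windows of at least that content the shares were 1.75% and 16.9%. In each of these 2 windows, 2 of the cores overlap as the palindrome CACGTG, which is also the E-box bound by factors such as MYC. *EGLN1*, *EPAS1*, *CA9*, *ADM* and the first window of *HIF1A* held 1 core each. *EGLN3* and the second window of *HIF1A*, with a GC content of 31.7%, held none. A match of letters is not a measured site, and known elements of some of these genes lie outside such windows.

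The windows of 5 members are shown because they run from no core to the most cores and hold members called higher, called lower and not called. Each is written 5′ to 3′ on the strand of its gene, with the cores in capitals. The windows lie at chr10:131981874-131982173 on the minus strand for *BNIP3*, chr4:185396591-185396890 on the plus strand for *ANKRD37* and chr11:10304823-10305122 on the plus strand for *ADM*. That of *HIF1A* lies at chr14:61695263-61695562 on the plus strand, and that of *EGLN3* at chr14:33951025-33951324 on the minus strand.
BNIP3: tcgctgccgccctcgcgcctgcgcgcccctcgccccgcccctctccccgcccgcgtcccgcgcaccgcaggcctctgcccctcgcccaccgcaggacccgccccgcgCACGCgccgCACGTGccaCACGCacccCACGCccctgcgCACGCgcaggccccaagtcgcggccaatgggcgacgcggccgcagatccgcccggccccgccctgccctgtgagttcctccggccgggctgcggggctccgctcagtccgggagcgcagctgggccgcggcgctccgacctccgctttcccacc
ANKRD37: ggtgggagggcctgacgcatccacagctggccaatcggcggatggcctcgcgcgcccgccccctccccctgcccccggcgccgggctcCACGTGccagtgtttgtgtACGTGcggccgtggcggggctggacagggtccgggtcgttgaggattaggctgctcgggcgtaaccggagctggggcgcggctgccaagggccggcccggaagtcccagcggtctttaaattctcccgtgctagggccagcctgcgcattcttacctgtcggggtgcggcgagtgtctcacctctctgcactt
ADM: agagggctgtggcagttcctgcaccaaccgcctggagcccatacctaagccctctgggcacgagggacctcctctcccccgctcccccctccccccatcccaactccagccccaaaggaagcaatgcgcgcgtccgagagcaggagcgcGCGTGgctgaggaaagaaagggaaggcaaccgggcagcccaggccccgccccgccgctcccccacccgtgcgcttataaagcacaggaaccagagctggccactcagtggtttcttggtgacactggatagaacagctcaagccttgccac
HIF1A: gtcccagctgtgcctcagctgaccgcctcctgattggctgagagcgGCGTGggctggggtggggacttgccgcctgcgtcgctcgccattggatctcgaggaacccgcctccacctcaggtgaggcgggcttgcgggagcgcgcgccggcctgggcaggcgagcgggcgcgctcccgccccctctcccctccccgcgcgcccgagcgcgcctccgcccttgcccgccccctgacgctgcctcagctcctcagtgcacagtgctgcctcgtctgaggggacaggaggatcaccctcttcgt
EGLN3: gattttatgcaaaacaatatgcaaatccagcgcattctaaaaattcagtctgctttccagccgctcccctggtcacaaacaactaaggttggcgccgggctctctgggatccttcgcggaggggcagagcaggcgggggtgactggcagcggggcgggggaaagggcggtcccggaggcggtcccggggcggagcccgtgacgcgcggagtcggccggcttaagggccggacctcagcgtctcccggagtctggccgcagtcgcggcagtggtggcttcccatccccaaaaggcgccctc

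Expression was deposited as FPKM, a fragment count scaled to the length of the gene and the depth of the library, so levels of different genes can be set side by side. The FPKM of each gene moved in whole steps, from which fragment counts were recovered for every gene, with totals of 29064253 to 32481171 fragments per library. Of the 6 neuroendocrine markers fixed for the check of the cell type, 5 had a mean FPKM of at least 1 and *FOXA2* did not. *CHGA*, which encodes the secretory granule protein chromogranin A, had an FPKM of 43.3 ± 0.87 in PBS and 24.8 ± 1.09 in PP (SD, n = 3 each), and the part of this shift in the results below was not tested. Of the endothelial, fibroblast and leukocyte markers, 6 of each, the summed FPKM was at most 4.91 in any library. No marker was at 0 in all 6 libraries. In bulk RNA, fewer cells with a transcript and less of it per cell cannot be told apart.

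Each difference is the mean log2(FPKM + 1) of PP less that of PBS. Differences were tested with limma in the 11726 genes whose mean FPKM reached 1, with Benjamini-Hochberg adjustment over all of them. Of the 10 members, 9 passed this filter and *CA9* did not. At an adjusted p under 0.05, 6 members were higher with PP (*VEGFA*, *ADM*, *HIF1A*, *EGLN1*, *NDRG1* and *BNIP3*), 1 was lower (*EGLN3*) and 2 were not past the threshold (*EPAS1* and *ANKRD37*). Of all tested genes, 38.1% were higher and 34.4% were lower at this threshold. The libraries of the 2 treatments did not overlap in 7 of the 9 tested members, and in 75.0% of all tested genes. At the stricter cutoff from the study's methods (unadjusted P under 0.001 with a log2 difference outside -1 to 1), only *VEGFA* was called, with 2.24% of all tested genes higher and 2.93% lower. The median log2 fold change was 0.12 over the 9 tested members and 0.02 over all tested genes.

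**Figure D1:**
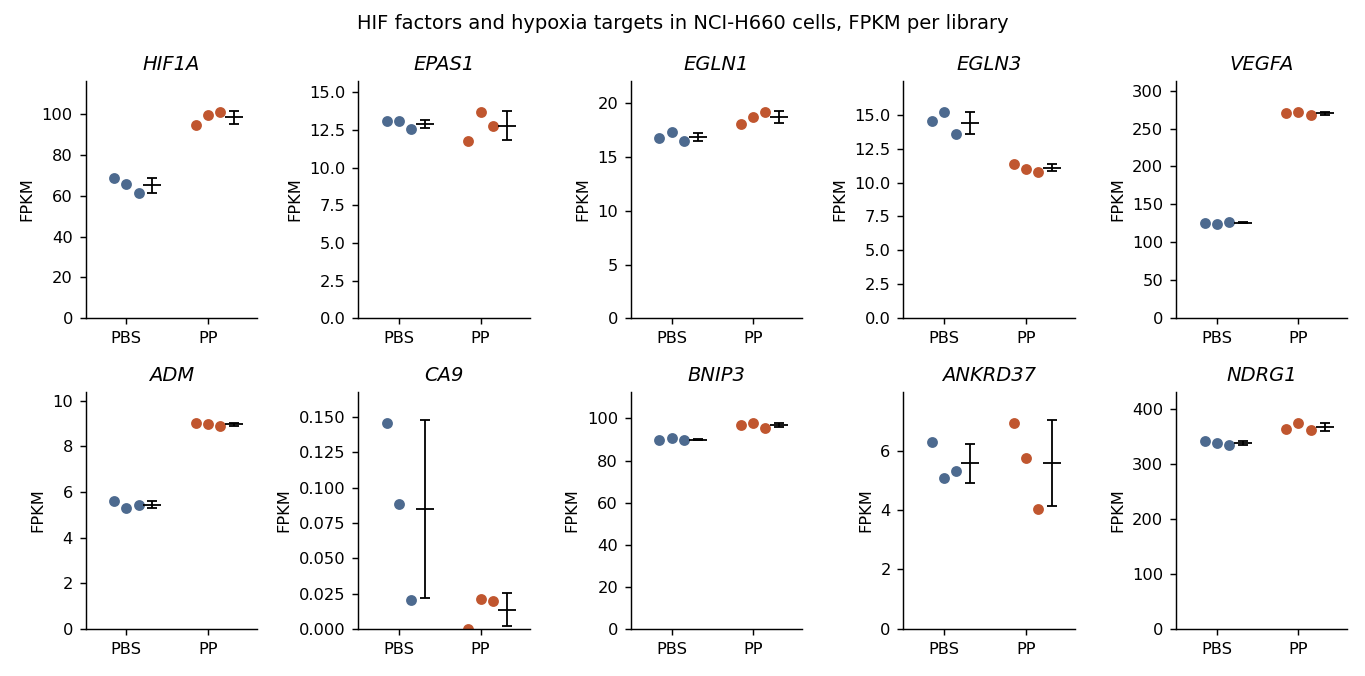
FPKM of the 10 members (vertical axes from 0, scaled separately) in the 3 PBS and 3 PP libraries. Points are libraries, and the bar beside them is the mean ± SD (n = 3); the PP libraries lie above all PBS libraries for 6 members and below them for *EGLN3*, and the libraries overlap for *EPAS1*, *ANKRD37* and *CA9*.

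*HIF1A* encodes the alpha subunit that is present in most cell types. Its FPKM was 68.6, 66.0 and 61.4 in PBS replicates 1, 2 and 3, and 94.9, 99.7 and 101.2 in PP replicates 1, 2 and 3. All PP libraries lay above all PBS libraries. The mean was 65.3 ± 3.64 (SD, n = 3) in PBS and 98.6 ± 3.29 (SD, n = 3) in PP, 1.51-fold higher. On the log2 scale this was a rise of 0.59 with a standard error of 0.045 (adjusted p = 1.21e-06, limma). Antisense RNAs are annotated at this locus, and the strand setting of the counting was not given in the sources used here.

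*EPAS1* encodes HIF-2 alpha, the subunit best known from endothelium and kidney. Its FPKM was 13.1, 13.1 and 12.6 in the PBS libraries and 11.8, 13.7 and 12.8 in the PP libraries. The highest and the lowest of the 6 values were both PP libraries, so the groups overlapped. The log2 difference was -0.02, with a 95% interval from -0.14 to 0.11 (adjusted p = 0.781 from limma). It was 0.03 without PP replicate 1, which had the lowest value. A change of *EPAS1* of the size seen in *HIF1A* lies outside this interval.

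Within a library, the linear ratio of *HIF1A* to *EPAS1* FPKM was 5.24, 5.03 and 4.86 in PBS and 8.05, 7.27 and 7.88 in PP. On the log2(FPKM + 1) scale the mean ratio was 2.25 ± 0.055 (SD, n = 3) in PBS and 2.86 ± 0.070 (SD, n = 3) in PP. The difference of 0.61 had a p of 0.1 in a two-sided exact permutation test. With 3 libraries against 3, this is the smallest p that such a test can give, and it was the same for each of the 3 ratios tested, also after adjustment over them.

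*EGLN1*, which encodes the main prolyl hydroxylase acting on HIF alpha in oxygenated cells, had an FPKM of 16.8, 17.3 and 16.5 in PBS and of 18.1, 18.7 and 19.2 in PP. The PP libraries were all higher, by a small margin, with means of 16.9 ± 0.378 and 18.7 ± 0.551 (SD, n = 3 each). The rise of 0.14 on the log2 scale had a standard error of 0.042 (adjusted p = 0.0124, limma). With upper-quartile scaling of the libraries it was 0.10 and no longer past the threshold (adjusted p = 0.0515 from limma).

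*EGLN3* encodes a related hydroxylase whose gene is itself induced by HIF. Its FPKM was 14.5, 15.2 and 13.6 in PBS and 11.4, 11.0 and 10.8 in PP, so that every PP library lay below every PBS library. The means were 14.4 ± 0.82 and 11.1 ± 0.285 (SD, n = 3 each), and limma gave a log2 difference of -0.36 with a standard error of 0.051 (adjusted p = 0.000115). *EGLN3* was the only member called lower in PP.

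The 2 hydroxylase genes moved in opposite directions. The linear ratio of *EGLN3* to *EGLN1* FPKM was 0.862, 0.883 and 0.824 in the PBS libraries and 0.627, 0.586 and 0.563 in the PP libraries. The mean log2 ratio fell by 0.50, from -0.21 ± 0.047 to -0.71 ± 0.074 (SD, n = 3 each), with the exact permutation p of 0.1 given above.

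**Figure D2:**
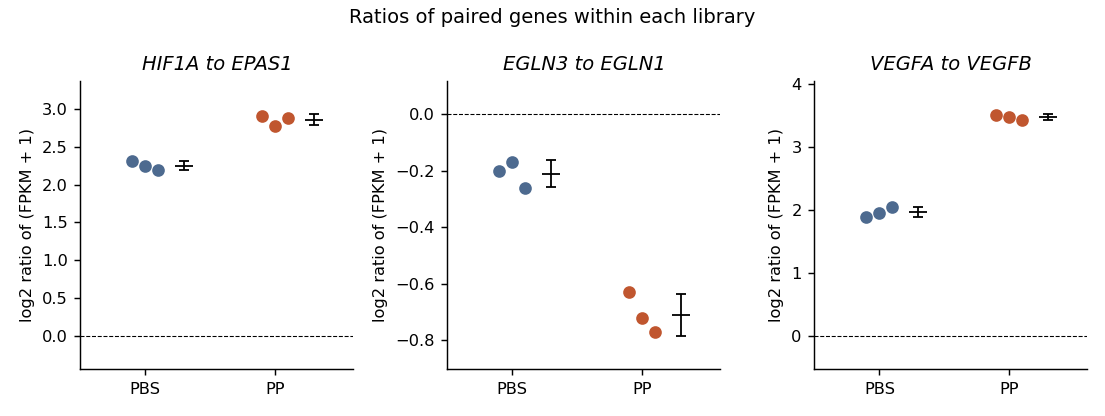
Log2 ratio of (FPKM + 1) of *HIF1A* to *EPAS1*, of *EGLN3* to *EGLN1* and of *VEGFA* to *VEGFB* within each library (vertical axes scaled separately, dashed line at 0). Points are libraries and the bars are mean ± SD (n = 3); in each panel the PP libraries lie apart from the PBS libraries, by 0.61, -0.50 and 1.51 on average.

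*VEGFA* encodes the growth factor that drives the formation of blood vessels. It had the highest log2 fold change of the members. Its FPKM was 126.0, 124.8 and 126.6 in PBS and 270.4, 271.8 and 268.2 in PP. The spread within each treatment was small beside the distance between them, with means of 125.8 ± 0.888 and 270.1 ± 1.82 (SD, n = 3 each), a 2.15-fold higher level in PP. Its log2 fold change of 1.10 had a standard error of 0.028 (adjusted p = 4.55e-10, limma) and lay above that of 98.3% of the tested genes. From 13643 to 14744 counts per PBS library and from 30611 to 32759 per PP library stood behind these values.

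*ADM* encodes adrenomedullin, a secreted peptide that widens vessels and whose gene is a widely used hypoxia target. Its FPKM was 5.60, 5.28 and 5.45 in PBS and 9.04, 8.98 and 8.90 in PP. Every PP library was above every PBS library, although the level was far below that of *VEGFA*. The means were 5.44 ± 0.162 and 8.97 ± 0.0705 (SD, n = 3 each), a 1.65-fold higher level. Behind these means stood 231 to 259 counts per PBS library and 405 to 435 per PP library. For *ADM*, limma gave a rise of 0.63 on the log2 scale with a standard error of 0.048 (adjusted p = 1.18e-06). It was 0.42 with a pseudocount of 5 and 0.71 with a pseudocount of 0.1, since the added value understates changes at this level.

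*BNIP3* encodes a receptor for mitophagy on the outer mitochondrial membrane. Its FPKM was 89.6, 90.5 and 89.8 in PBS and 97.0, 98.0 and 95.7 in PP. The groups did not overlap, but the mean rose by only 7.71%. This was 0.11 on the log2 scale with a standard error of 0.03 (adjusted p = 0.00949, limma). With upper-quartile scaling it was 0.07 and no longer past the threshold (adjusted p = 0.0768 from limma). *BNIP3*, the member with 6 cores in its window, has pseudogene copies, and its level is uncertain to the extent that fragments were shared with them.

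*NDRG1*, a gene induced by hypoxia and by metal chelation, had the highest level of the members. Its FPKM was 342.0, 337.4 and 335.4 in PBS and 364.3, 375.2 and 361.2 in PP. The PP libraries were all higher, and the mean rose by 8.47%. In limma, the difference of 0.12 on the log2 scale had a standard error of 0.029 (adjusted p = 0.00426).

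*ANKRD37* encodes an ankyrin repeat protein, and its gene is a direct HIF target. Its FPKM was 6.30, 5.09 and 5.31 in PBS and 6.94, 5.74 and 4.05 in PP. The PP libraries spread over the whole range of the PBS libraries and beyond it at both ends. The log2 fold change was -0.02, with a 95% interval from -0.33 to 0.29 (adjusted p = 0.916 from limma), and between 104 and 167 counts per library stood behind it. The value was 0.06 without PBS replicate 1 and 0.16 without PP replicate 3, so its sign depended on single libraries. The interval is wider than that of any other tested member and includes changes of the size seen in *BNIP3* and *NDRG1*.

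*CA9* encodes a carbonic anhydrase of the cell surface that is strongly induced by HIF-1 in many tumours. It was at or near 0 in both treatments, with an FPKM of 0.146, 0.0882 and 0.0207 in PBS and of 0.0, 0.0214 and 0.0197 in PP. These values are 7, 4 and 1 counts and 0, 1 and 1 counts. Summed over libraries, 12 counts in PBS stood against 2 in PP, a ratio of PP to PBS of 0.163 with an exact 95% interval from 0.0177 to 0.732 that covers counting error only. The libraries overlapped, the PBS libraries differed among themselves, and no difference between the treatments could be shown at this depth.

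**Figure D3:**
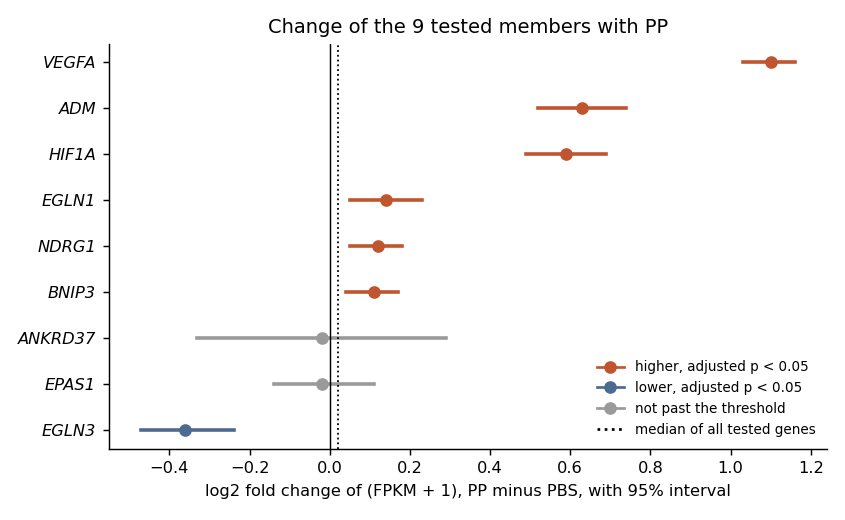
Log2 fold change of (FPKM + 1), PP minus PBS, of the 9 tested members with the 95% interval from limma (horizontal axis). *VEGFA*, *ADM* and *HIF1A* lie well to the right of the dotted median of all tested genes (0.02), *EGLN1*, *NDRG1* and *BNIP3* lie near it, the intervals of *ANKRD37* and *EPAS1* cross 0, and *EGLN3* lies below 0.

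The order of the levels shifted with treatment. In PBS it ran from *NDRG1* through *VEGFA*, *BNIP3*, *HIF1A*, *EGLN1*, *EGLN3*, *EPAS1*, *ANKRD37* and *ADM* to *CA9*, and the libraries of *ANKRD37* and *ADM* overlapped. In PP, *HIF1A* reached the level of *BNIP3*, with overlapping libraries at means of 98.6 and 96.9. *EPAS1* then stood above *EGLN3*, and *ADM* above *ANKRD37*. All other neighbours in both orders had libraries that did not overlap.

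The genes most like *VEGFA* over the 6 libraries were sought by Pearson correlation of log2(FPKM + 1) among all tested genes. They were *GTPBP2*, a GTPase of ribosome rescue (r = 0.99993), *CEBPG*, a transcription factor (r = 0.99986), and *TRIB3*, a pseudokinase (r = 0.99983). Their log2 fold changes were 1.38, 1.64 and 3.09. The most opposed were *TMEM100*, *FKBP1A* and *ANXA11*, with r between -0.99991 and -0.9999 and log2 fold changes of -3.07, -0.76 and -1.09. *TMEM100* was at -1.60 with a pseudocount of 5. Such values mostly restate the split between treatments, since 21.8% of the tested genes had r above 0.95 with *VEGFA*. Among the members, r with *VEGFA* was 0.998 for *ADM*, 0.982 for *HIF1A*, 0.98 for *BNIP3*, 0.955 for *NDRG1* and 0.919 for *EGLN1*. It was -0.967 for *EGLN3*, -0.149 for *EPAS1* and -0.0354 for *ANKRD37*.

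To place the members among their pathway, a list of 104 other genes of oxygen sensing and of HIF target groups was written, of which 101 were in the table and 87 were tested. At an adjusted p under 0.05 from limma, 26 of the 87 were higher with PP (29.9%) and 43 were lower (49.4%), against 38.1% and 34.4% of all tested genes. Their median log2 fold change was -0.10. Past the stricter cutoff, 6 of the 87 were higher and 3 were lower, against 2.24% and 2.93% of all tested genes. More of these genes thus went below their PBS level than above it. The counts of each group below are to be read beside these shares of all tested genes, and no group was tested as a set.

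Among 6 tested HIF partners and cofactors, 3 were higher and 2 were lower. *CREBBP*, an acetyltransferase that HIF recruits, had a log2 fold change of 0.49 (adjusted p = 1.69e-06 from limma), and *CITED2*, which competes with HIF for that acetyltransferase, of 0.24 (adjusted p = 0.00188). *PKM*, the pyruvate kinase gene, fell by 0.92 on the log2 scale (adjusted p = 2.58e-09), and *ARNT2*, a neural beta subunit, fell by 0.47 (adjusted p = 0.000148), or by 0.28 with a pseudocount of 5. The beta subunit gene *ARNT*, named after the values were seen, had an FPKM of 18.7 ± 0.79 in PBS and 17.7 ± 0.434 in PP (SD, n = 3 each), a log2 fold change of -0.08 (adjusted p = 0.15).

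Of 10 tested genes of oxygen sensing and HIF degradation, 4 were higher and 5 were lower, with a median of -0.03. *SIAH2*, a ubiquitin ligase that targets EGLN proteins, had the largest rise of the group at 0.84 (adjusted p = 2.94e-07 from limma). *CUL2*, the scaffold of the VHL ligase, rose by 0.29 (adjusted p = 0.000199), and *RBX1*, its RING subunit, fell by 0.48 (adjusted p = 0.000454). *P4HTM*, a membrane-bound prolyl hydroxylase, fell by 0.56 (adjusted p = 0.000106).

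Among the VEGF family and its receptors, none of the 4 other tested genes rose with *VEGFA* at this threshold. *VEGFB*, a family member that responds little to hypoxia, fell in PP. Its FPKM was 33.1, 31.4 and 29.8 in PBS and 22.6, 23.4 and 24.0 in PP, a log2 fold change of -0.41 (adjusted p = 1.98e-05 from limma). *NRP1*, a VEGF co-receptor, fell by 0.49 (adjusted p = 2.84e-05), or by 0.32 with a pseudocount of 5, while *NRP2* at 0.14 (adjusted p = 0.0527) and *PGF* at -0.02 (adjusted p = 0.883) were not past the threshold. *NRP2* passed it as higher in 4 alternative fits, with adjusted p of 0.00572 to 0.0488 from limma. The other 5 genes of this group did not pass the filter. With the filter at 0.1, *VEGFD* was called higher at 0.27 (adjusted p = 0.0155 from limma) and *FLT4* lower at -0.35 (adjusted p = 0.000527). Both were named after their values were seen. The mean FPKM of *VEGFD* was only 0.136 in PBS and 0.375 in PP. The mean log2 ratio of *VEGFA* to *VEGFB* was 1.97 ± 0.077 in PBS and 3.48 ± 0.046 in PP (SD, n = 3 each), with the exact permutation p of 0.1. The linear ratio was 3.80 to 4.24 in PBS and 11.2 to 12.0 in PP.

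While the ligand *ADM* rose, both tested genes for its receptor's accessory proteins fell. *RAMP1*, which pairs with the same receptor mainly for a related peptide, fell from 33.3 ± 1.31 to 11.3 ± 0.553 FPKM (SD, n = 3 each), a log2 fold change of -1.48 (adjusted p = 2.32e-09 from limma). *RAMP2*, the partner that makes the adrenomedullin receptor, had a log2 fold change of -0.87 (adjusted p = 0.000195). The receptor gene itself, *CALCRL*, was not tested, with a mean FPKM of 0.0178 in PBS and 0.0102 in PP, and was named after its values were seen.

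The glucose use targets were mostly lower, with 15 of 21 tested genes lower, 4 higher and a median of -0.41. *SLC16A3*, the lactate exporter, had a log2 fold change of -0.97 (adjusted p = 3.16e-06 from limma). *GAPDH* fell from 1072.0 ± 9.67 to 563.2 ± 20.3 FPKM (SD, n = 3 each), a log2 fold change of -0.93 (adjusted p = 3.62e-09). The 4 that rose were *SLC2A1*, the glucose transporter GLUT1, at 0.57 (adjusted p = 1.33e-06), *HK2*, a hexokinase, at 0.50 (adjusted p = 4.79e-06), and *PDK1* and *GYS1* at 0.43 and 0.22 (adjusted p = 0.000352 and 0.00487). The last pair was named after the values were seen. Several glycolysis genes, *GAPDH* among them, have many pseudogene copies, and their levels are uncertain to the extent that fragments were split.

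**Figure D4:**
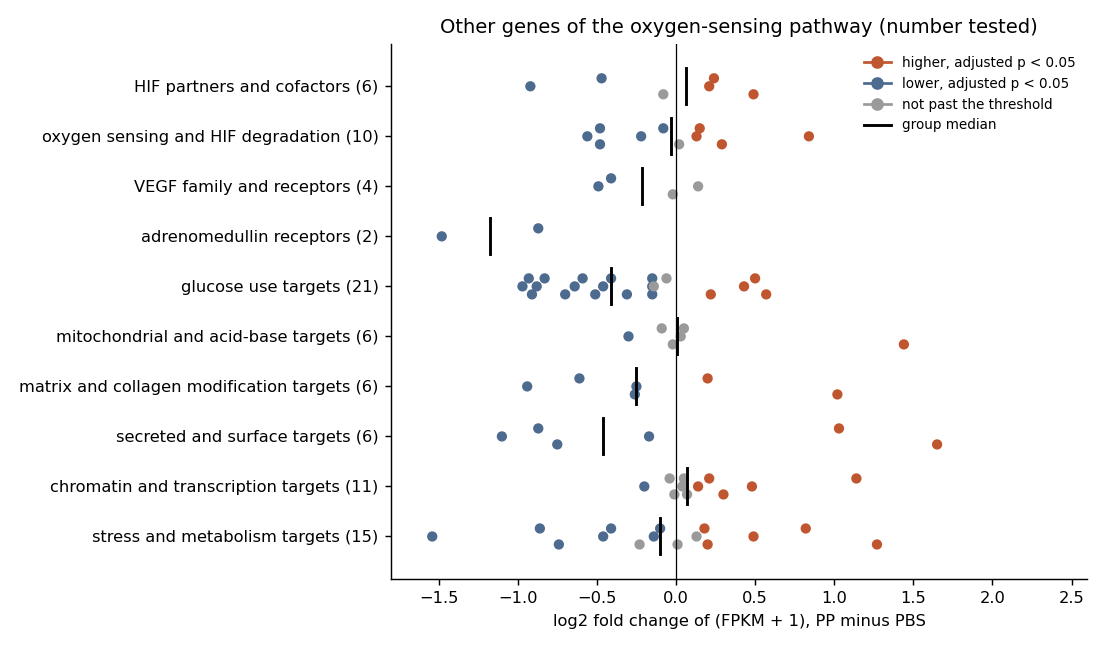
Log2 fold change of (FPKM + 1), PP minus PBS (horizontal axis), of 87 other genes of the oxygen-sensing pathway in 10 groups, with the number tested in parentheses. Points are genes, coloured by the limma call, and black bars are group medians; most glucose use targets lie below 0, and 6 genes lie above 1, past the stricter cutoff.

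Of 6 tested mitochondrial and acid-base targets, 1 was higher, 1 was lower and 4 were not past the threshold. *HIGD1A*, which encodes a small protein of the inner mitochondrial membrane, fell by 0.30 on the log2 scale (adjusted p = 3.81e-05 from limma). *FAM162A* and *NDUFA4L2* had log2 fold changes of -0.09 and 0.05 (adjusted p = 0.108 and 0.648). With upper-quartile scaling, *FAM162A* was called lower at -0.12 (adjusted p = 0.031 from limma).

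The 6 tested genes of matrix and collagen modification split, with 2 higher and 4 lower. *P4HA2*, a collagen prolyl hydroxylase, rose from 26.0 ± 1.04 to 53.5 ± 2.14 FPKM (SD, n = 3 each), a log2 fold change of 1.02 (adjusted p = 1.87e-08 from limma). *PLOD1*, a collagen lysyl hydroxylase, fell by 0.94 (adjusted p = 4.1e-09), and *LOXL2* fell by 0.61 (adjusted p = 6.72e-05). *LOX* rose by 0.20 (adjusted p = 0.0256), with adjusted p of up to 0.0901 when single libraries were left out. Both values depended on the pseudocount, with *LOXL2* at -0.30 and *LOX* at 0.08 with a pseudocount of 5, and at -0.82 and 0.34 in limma-voom on the recovered counts.

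Of 6 tested secreted and surface targets, 2 were higher and 4 were lower. *HMOX1*, the heme oxygenase gene, had the largest rise of the list at 1.65 (adjusted p = 1.21e-09 from limma), and *STC2*, a secreted glycoprotein, rose by 1.03 (adjusted p = 5.78e-09). *ANGPTL4*, an inhibitor of lipoprotein lipase, fell by 1.10 (adjusted p = 5.56e-07), and *MET*, the receptor of hepatocyte growth factor, fell by 0.87 (adjusted p = 1.9e-06). The values of *P4HA2* and *STC2* were close to the cutoff of 1, and were 0.98 and 0.99 with upper-quartile scaling. With a pseudocount of 5, *P4HA2* and *STC2* stood at 0.92 and 0.94, and *ANGPTL4* at -0.87. *MET*, at a low level, was at -0.41 with a pseudocount of 5 and at -1.22, past the stricter cutoff, in limma-voom on the recovered counts.

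Among 11 tested chromatin and transcription targets, 5 were higher and 1 was lower. *BHLHE41* and *BHLHE40*, both repressors of the circadian system, rose by 1.14 and 0.48 (adjusted p = 3.94e-07 and 4.24e-06 from limma). *BHLHE41*, also low, was at 0.61 with a pseudocount of 5, below the stricter cutoff, and at 1.48 in limma-voom. *KDM5B*, a histone demethylase, fell by 0.20 (adjusted p = 0.00205), and *KDM4C* had a log2 fold change of -0.04 (adjusted p = 0.521). Of 15 stress and metabolism targets, 5 were higher and 7 were lower. *DDIT4*, an inhibitor of mTORC1, rose by 1.27 (adjusted p = 4.85e-08) and *WSB1*, a ubiquitin ligase subunit, by 0.82 (adjusted p = 3.6e-08). *RAB20*, a small GTPase, fell by 1.54 (adjusted p = 3e-08) and *NARF* by 0.86 (adjusted p = 7.6e-08).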

How the data were processed

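RNA-seq libraries of NCI-H660 cells were grouped by their labels into PBS (n = 3) and PP (n = 3). The authors deposited FPKM of 17177 gene symbols per library, without pooling. The submitters' processing notes list fastp, HISAT2, HTSeq and GRCh38, while the paper's methods name Bowtie, RSEM, Cufflinks, HTSeq-count and hg19. Which of these made the values was not settled, and the annotation and strand setting were not given in the sources used here. No gene coordinates were therefore used in the values or tests, and the start-site windows were matched to the members by gene symbol only.

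Genes whose mean FPKM reached 1 were tested with limma 3.58.1 in R 4.3.3 (lmFit, then eBayes with an intensity trend) on log2(FPKM + 1). A gene was called at a Benjamini-Hochberg adjusted p under 0.05. Ratios were compared by two-sided exact permutation tests (scipy 1.17.1). Whole counts were recovered from the FPKM steps, within 0.01 of a count, for all 17177 genes. The labels give 3 libraries per group and do not say whether these came from separate cultures. The paper's figure legend describes 3 independent samples, while its methods describe 2 per group, so P values may measure technical spread. The scripts were tested on simulated data.

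The members and lists were chosen with earlier results of these data known. Named were the members, the 2 highest and 2 lowest tested genes of each pathway group, those past the stricter cutoff, the 3 genes most and least correlated with *VEGFA*, and *VEGFB*. Other names were added after their values were seen. The alternatives varied the pseudocount (0.1 or 5), the filter (5 or 0.1), the scaling, the eBayes trend, the libraries, the replicate block and the test. A few genes that this rule names are not reported here.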

Additional observations from a re-analysis of the deposited data

How the results depend on the processing

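All 6 members that were higher and the 1 that was lower kept their direction under the 15 alternatives. The number called higher at an adjusted p under 0.05 was 4 with upper-quartile scaling, under which *EGLN1* and *BNIP3* lost the call, and 6 in every other fit that was run. Past the stricter cutoff *VEGFA* alone was called among the members in each fit, at 1.06 to 1.10. Without each replicate in turn, 6 members stayed higher and 1 lower, and 22 to 24 pathway genes were higher and 37 to 42 lower, against 26 and 43. Over all alternatives the pathway counts were 22 to 28 and 37 to 47. Differences of the log2 ratios were 0.57 to 0.65 for *HIF1A* to *EPAS1*, -0.54 to -0.39 for *EGLN3* to *EGLN1* and 1.44 to 1.55 for *VEGFA* to *VEGFB*. With 1 library left out, the smallest exact permutation p is 0.2 by the two-sided test used.

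Of 787 values of named genes under the alternatives, 8 changed sign, each with 1 library left out, and none of those genes had been called. Leaving out each library in turn, *EPAS1* ranged from -0.07 to 0.03 (above 0 without PP replicate 1), *ANKRD37* from -0.17 to 0.16 (above 0 without PBS replicate 1 or PP replicate 3), *PGF* from -0.12 to 0.07 (above 0 without PBS replicate 2, PP replicate 2 or PP replicate 3) and *NDUFA4L2* from -0.02 to 0.14 (below 0 without PBS replicate 3 or PP replicate 1). The cause was not tested. The labels do not say whether same-numbered libraries were paired. The deviations of same-numbered libraries from their group means correlated at -0.21, -0.014 and -0.13, so no shared deviation was seen. These deviations are centred within groups of 3 and cannot decide whether the libraries were handled in pairs. With the replicate block, 6 members were higher, 1 was lower, and 38 pathway genes were lower. Upper-quartile scaling moved the median of all genes from 0.022 to -0.014. Depth limited *CA9*, with 12 counts in PBS and 2 in PP.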
